A study of Homo sapiens with 2 samples.

Results

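Domain VI is the last structural domain of 28S rRNA, the long RNA of the large ribosomal subunit. It was taken here as the fixed range from residue U4531 to the 3′ end of the molecule, 540 of the 6940 rRNA positions listed in all, which also include 18S rRNA. The bounds of the domain are approximate, and the rule that sets them uses position alone, with no measured value. Coverage came from CLIP-seq, in which RNA fragments that come down with a protein are sequenced, in the human osteosarcoma line U2OS. There were 2 groups with 1 library each: a pull-down labelled ZAK-alpha-RBR and a mock pull-down. The labels give no treatment, do not spell out RBR and do not say what the mock pull-down contained. The table lists rRNA alone, so no marker of the cell line was measured. With 1 library in each group there is no replicate check and no test between the groups.

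ZAKα is the kinase that starts the ribotoxic stress response when ribosomes stall or are damaged. Domain VI carries the sarcin-ricin loop, a hairpin at the factor-binding side of the large subunit that translation GTPases touch. Ricin removes the base of an adenine in this loop, α-sarcin cuts the backbone between a neighbouring G and A, and both toxins set off the ribotoxic stress response. The domain also holds expansion segment ES39L, an extension that bacterial ribosomes lack, and ends with the 3′ end of the molecule.

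The sequences of the places that the results turn on were taken from the base column of the table, which writes U and whose origin is not stated, and are given 5′ to 3′. Residues are named by base and position, with the 5′ end of 28S as the first. In the first sequence, the sarcin-ricin loop from C4598 to C4615, capitals mark the loop tip, found by its letters at 4604 to 4607. In the others capitals mark each C followed by an A, the boundaries at which many of the steepest changes in coverage lay. They show the first peak (U4531 to A4548), the low stretch before the loop (C4561 to A4584), the plateau and loop with their edges (C4582 to U4620) and the low region that overlaps the loop (G4609 to U4632). Further downstream are the GC-rich arm (C4771 to G4830), the short low region (C4928 to G4940) and the 3′ end (A5006 to U5068).
Sarcin-ricin loop: caguacGAGAggaaccgc
First peak: uuagaccgucgugagaCA
Low stretch before the loop: ccuacugaugauguguuguugcCA
Plateau and loop: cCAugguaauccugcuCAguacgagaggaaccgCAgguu
Low region at the loop: gaaccgCAgguuCAgaCAuuuggu
GC-rich arm: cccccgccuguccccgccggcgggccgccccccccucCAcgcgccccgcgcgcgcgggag
Short low region: ccguCAcgCAccg
3′ end: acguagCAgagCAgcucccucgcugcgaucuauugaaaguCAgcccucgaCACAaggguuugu
The table has the entry No_cov in place of a base at the last 2 positions. Its 28S is as long as the RefSeq gene RNA28SN5 (GRCh38.p14), to which that annotation assigns no chromosome. Other 28S copies are annotated on chromosomes 21 and 22, so the reads were not tied to 1 gene.

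Domain VI as a whole took a smaller share of the ZAK-alpha-RBR library than of the mock. Its share of all coverage was 8.37% with ZAK-alpha-RBR against 10.7% in the mock, and its share of the 28S coverage alone was 13.0% against 15.9%. Mean coverage, in parts per 1000000 of the library total (ppm), was 155 with ZAK-alpha-RBR and 198 in the mock. The log2 ratio was -0.35, taken as ZAK-alpha-RBR over mock after adding 1 ppm to each value. Without the last 65 positions of the domain it was -0.23, with shares of all coverage of 7.96% and 9.37%. In the 540 positions just before the domain it was -0.16, and over the rest of 28S it was -0.02. The median read depth per position, with the authors' scaling undone, was 864.5 for ZAK-alpha-RBR and 14446.5 for the mock.

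The mock was higher at 343 of the 540 positions and ZAK-alpha-RBR at 196, and the last position had no read in either library. Over all 6940 positions the mock was higher at 3157 and ZAK-alpha-RBR at 3781. At 123 positions (22.8%) ZAK-alpha-RBR was at least 2-fold lower, against a background of 11.9% over all 6940 positions. At 53 positions (9.81%) it was at least 2-fold higher, against a background of 9.31%. At least 4-fold lower were 25 positions, where the background was 2.55%, and none of the 540 was at least 4-fold higher, where the background was 0.749%. The 3′ end carried much of the lower count: 58 of the 123 lay in the last 65 positions. Outside this end 65 of 475 were lower, a share much closer to the background of 11.9%. Within the domain the log2 ratio of single positions ran from -2.37 to 1.54. Across its 540 positions the log2 coverage of ZAK-alpha-RBR and that of the mock had a correlation of r = 0.80, a description only, since neighbouring positions share reads.

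**Figure D1:**
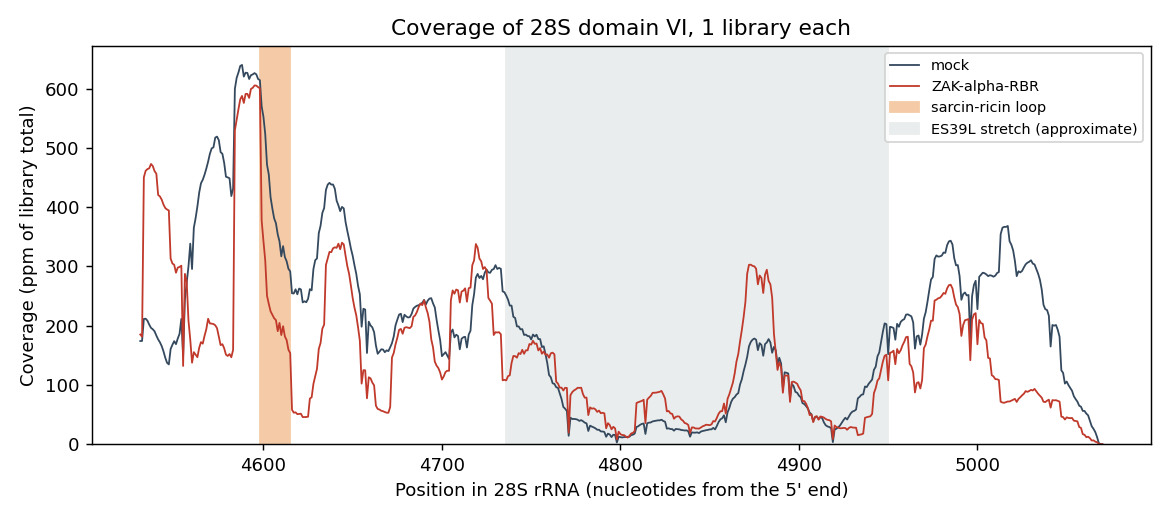
Coverage in ppm of each library's total at every position of domain VI, red for ZAK-alpha-RBR and dark blue for the mock, 1 library each and no error bars. Both libraries are highest just upstream of the sarcin-ricin loop, where ZAK-alpha-RBR reaches 605 ppm and the mock 640 ppm, and inside the ES39L stretch both fall to low levels.

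The domain opened with a short peak of ZAK-alpha-RBR coverage. From A4533 to C4547 the mean was 436 ppm with ZAK-alpha-RBR and 179 ppm with the mock, 2.44-fold higher. All 15 of these positions were at least 2-fold higher, the longest such run of the domain. The peak began between U4532 and A4533, where ZAK-alpha-RBR depth went from 1240 to 3079 reads. At C4547 the depth was 2696 reads (95% exact Poisson interval 2595 to 2800) against 10609 (10408 to 10813) in the mock. This was the largest ratio of the domain, a 2.93-fold difference (2.81 to 3.05). At the next base, A4548, ZAK-alpha-RBR depth dropped to 2142 reads and mock depth rose to 12652. The difference there was 1.95-fold (1.86 to 2.04), so the run of 2-fold positions ended but ZAK-alpha-RBR was still higher. Of the first 30 positions of the domain, ZAK-alpha-RBR was higher at 26.

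This peak was not a called region. For a call, the ratio of profiles averaged over 15 positions had to differ from the 28S median by at least 2-fold, over a run of 10 positions or more. With windows of 5 positions the peak was called, from A4535 to C4547, and with library totals as the baseline, from C4536 to A4548.

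Between this peak and the loop the order of the libraries turned. A region called lower spanned C4561 to U4580, with 177 ppm for ZAK-alpha-RBR and 463 ppm for the mock, 2.62-fold lower. At U4576, the low point of its averaged ratio, 1143 reads (1078 to 1211) stood against 38812 (38427 to 39200), a fold of 0.339 (0.320 to 0.360). In this region mock depth had already reached 28756 to 40870 reads, while ZAK-alpha-RBR depth stayed between 1004 and 1447.

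Directly downstream lay the highest coverage of the domain in both libraries, on the plateau from A4584 to C4598. It began at the boundary between C4583 and A4584. Across it ZAK-alpha-RBR depth rose from 1088 to 3621 reads and mock depth from 33943 to 47225. The rise made up 70.0% of the higher side with ZAK-alpha-RBR and 28.1% in the mock, and it was the largest rise of the domain in each library. On the plateau the means were 585 and 623 ppm, a log2 ratio of -0.09. The ZAK-alpha-RBR maximum was at G4595, with 4138 reads (4013 to 4266) against 49308 in the mock, a fold of 0.967 (0.936 to 0.998). The mock maximum was a little upstream, at U4588, with 50397 reads against 4017. The 5 highest ZAK-alpha-RBR positions of the domain, U4594 to C4598, ended on the first base of the sarcin-ricin loop.

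The sarcin-ricin loop itself lay on the falling side of this plateau. Its mean coverage was 246 ppm with ZAK-alpha-RBR against 406 ppm, a log2 ratio of -0.72, and the mock was higher at each of its 18 positions. At none of the 18 did the libraries differ by 2-fold. From the first to the last base of the loop the depth fell from 4106 to 1051 reads with ZAK-alpha-RBR, a loss of 74.4%, and from 48372 to 22970 in the mock, a loss of 52.5%. The steepest step of the loop with ZAK-alpha-RBR was its first: between C4598 and A4599 the depth dropped from 4106 to 2580 reads, by 37.2%, against 7.23% in the mock. The next in size was between U4601 and A4602, with 19.3% and 9.91%, which was the steepest in the mock.

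Across the 3 steps within the loop tip, G4604 to A4607, depth fell by 1.51% to 2.68% per step with ZAK-alpha-RBR and by 2.14% to 4.56% in the mock. The ricin-target adenine, A4605, was covered by 1493 reads (1418 to 1571) with ZAK-alpha-RBR and 31306 (30960 to 31655) in the mock, a fold of 0.549 (0.521 to 0.579). Across the bond that α-sarcin cuts, between G4606 and A4607, depth went from 1453 to 1431 reads, a fall of 1.51%, and in the mock from 30003 to 29361, a fall of 2.14%. Of the 17 steps inside the loop, 14 had a larger fall than this one in each library. The median fall per step was 5.49% with ZAK-alpha-RBR and 4.16% in the mock.

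Leaving the loop, ZAK-alpha-RBR depth dropped again. Between C4615 and A4616 it fell from 1051 to 398 reads, by 62.1%, and the mock from 22970 to 20055, by 12.7%. The following 10 positions, A4616 to C4625, were all at least 4-fold lower, with 50.3 against 251 ppm on average. They were picked as the longest run of such positions in the domain, so these values follow in part from that choice. At G4623 the ZAK-alpha-RBR library had 313 reads (279 to 350) against 18990 (18721 to 19262), 5.27-fold lower (4.71 to 5.91). The called region around it, G4609 to U4632, includes the 3′ side of the loop and had means of 108 and 287 ppm. The 17 of its positions that were at least 2-fold lower all lay past the loop, from A4616 to U4632. From A4626, still inside this region, to C4654 the log2 ratio was -0.56. Both libraries had a peak there, with 2324 ZAK-alpha-RBR reads at G4644 and 34725 mock reads at G4637.

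**Figure D2:**
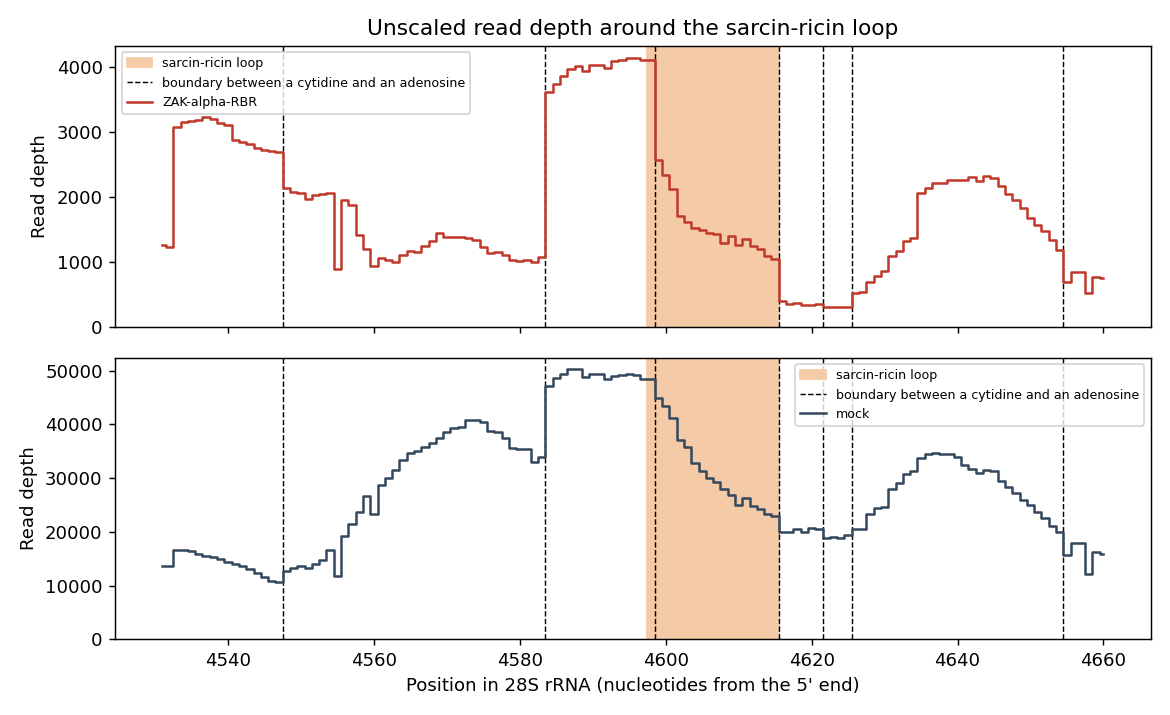
Unscaled read depth from the start of the domain to position 4660, ZAK-alpha-RBR above and mock below, with the sarcin-ricin loop shaded and each boundary between a C and a following A dashed. ZAK-alpha-RBR depth steps from 1088 to 3621 reads into the plateau, from 4106 to 2580 at the start of the loop and from 1051 to 398 at its end, while the mock declines in smaller steps through the loop.

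From the loop to G4735, where helices of the domain continue toward ES39L, the mock was higher at 99 of 120 positions, with means of 188 ppm for ZAK-alpha-RBR and 253 ppm for the mock and a log2 ratio of -0.42. None of the 120 was 2-fold higher, where the background was 9.31%, and 28 were 2-fold lower, where it was 11.9%. Most of the 28 lay in the run of 17 from A4616 to U4632 and in a run of 9 that ended at C4671. A local ZAK-alpha-RBR peak at G4719 held 2309 reads against 22139, a fold of 1.20 (1.15 to 1.25). A dip from A4655 to C4671, bounded on each side by a C-A boundary, had means of 80.9 and 178 ppm and a log2 ratio of -1.13. It was not called.

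The stretch that holds ES39L, set here roughly as C4736 to G4950, was the block of the domain in which ZAK-alpha-RBR was higher. Its means were 91.6 ppm and 78.7 ppm, a log2 ratio of 0.22. ZAK-alpha-RBR was higher at 149 of 215 positions, 38 of them at least 2-fold, where the background was 9.31%. In the rest of 28S ZAK-alpha-RBR was also higher at most positions, 2664 against 1866 for the mock. The median log2 ratio of single positions was 0.43 in the block and 0.18 in the rest of 28S. Of all bases in this block 82.3% were G or C, against 64.9% in the whole domain. Each library had its lowest mean of the 5 blocks here.

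Within the block, the GC-rich arm from C4771 to G4830 (91.7% G and C) held 37 of the 38 positions that were 2-fold higher. It was picked as the pair of neighbouring 30-position tiles with the highest ratios. This count and the arm's fold thus follow in part from that choice. The arm's mean coverage was 56.5 ppm with ZAK-alpha-RBR against 27.2 ppm, 2.08-fold higher. The depth there was low, 57 to 652 reads per position with ZAK-alpha-RBR and 238 to 3528 in the mock. The next 30 positions, from G4831, had 93.3% G and C. Their log2 ratio was 0.52, and none of them was 2-fold higher. A separate peak lay between G4861 and G4890, with means of 217 and 139 ppm. At its top, A4873, 2071 reads (1983 to 2162) stood against 13586, a 1.76-fold difference (1.68 to 1.84), and no position of this peak was 2-fold higher. At the 3′ side of the block a short region was called lower, C4928 to G4940, with means of 30.04 and 76.5 ppm. At C4934, where its averaged ratio was lowest, 110 reads (90.4 to 133) stood against 6305, 4.98-fold lower (4.12 to 6.06).

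The 3′ end of 28S had the lowest ratio of the blocks. From G4951 to the last position the means were 121 and 225 ppm, a log2 ratio of -0.89, and the mock was higher at 119 of 120 positions. At G4985, a local maximum of each library, 1840 ZAK-alpha-RBR reads stood against 27040, a fold of 0.784 (0.747 to 0.822). The mock then rose to a further peak of 29003 reads at C5017. ZAK-alpha-RBR had no peak there and was covered by 493 reads (450 to 539), 5.11-fold lower (4.67 to 5.59). Across the boundary between C5012 and A5013 the libraries moved in opposite directions, from 741 to 491 reads with ZAK-alpha-RBR and from 22882 to 27901 in the mock.

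The called region at this end ran from A5006 to the last position, with means of 62.6 and 201 ppm, 3.20-fold lower. Of its 65 positions 58 were at least 2-fold lower. Both libraries thinned out toward the end: at U5068 there were 5 ZAK-alpha-RBR reads and 140 mock reads, and at the next position 0 and 3.

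**Figure D3:**
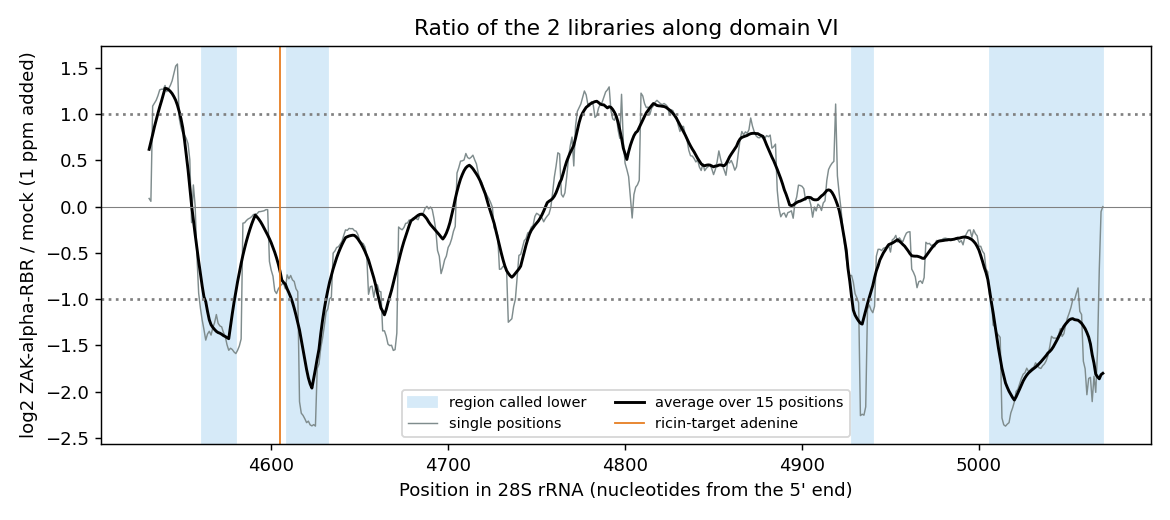
Log2 ratio of ZAK-alpha-RBR over mock coverage with 1 ppm added, for single positions in grey and averaged over 15 positions in black, with the 4 called regions shaded, dotted lines at 2-fold and an orange line at the ricin-target adenine. The averaged ratio is above 0 at the start of the domain and through most of the ES39L stretch, and it reaches its lowest value, -2.09, at position 5020 near the 3′ end.

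In all, 4 regions of the domain were called lower and none higher. The median log2 ratio of 28S, the baseline of the call, was 0.15, so a higher call needed the larger shift from 0. The lower regions covered 122 of the 540 positions, against a background of 9.88% of all positions, and the background for higher regions was 4.7%. With library totals as the baseline, 3 regions were lower and 3 higher. The higher ones were C4536 to A4548 in the first peak, and G4776 to G4794 and C4812 to G4827 in the GC-rich arm. The short region from C4928 was not called with windows of 31 positions, with library totals as the baseline, with a minimum of 20 positions, with a pseudocount of 10 ppm or at 3-fold. The whole of 28S had 23 lower and 9 higher regions by the same rule.

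Many of the sharpest edges of the ZAK-alpha-RBR signal lay at C-A boundaries. Domain VI has 21 such boundaries, 3.90% of its neighbouring pairs. These held 18.3% of all falls and 23.9% of all rises in ZAK-alpha-RBR depth, against 10.1% and 16.7% in the mock. In the rest of the table, where the pair makes up 3.67% of neighbours, they held 21.5% of falls and 18.8% of rises with ZAK-alpha-RBR, and 12.6% and 10.8% in the mock. A fall marks 3′ ends of reads and a rise 5′ starts, as far as reads were not broken by alignment gaps.

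Taken boundary by boundary, ZAK-alpha-RBR depth changed by a larger share than mock depth at 19 of the 21. The median change was 39.7% of the larger side with ZAK-alpha-RBR and 13.0% in the mock. At the other 516 boundaries up to U5068 it was 3.94% and 3.65%. A change of at least 20% occurred at 18 of the 21 with ZAK-alpha-RBR and at 6 in the mock, and at 51 and 38 of the 516 others. The direction differed from place to place: ZAK-alpha-RBR depth rose at 9, fell at 11 and was equal at 1. The exceptions with the larger change in the mock were C4716, with 12.5% and 18.3%, and C5017, with 0 and 7.003%.

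**Figure D4:**
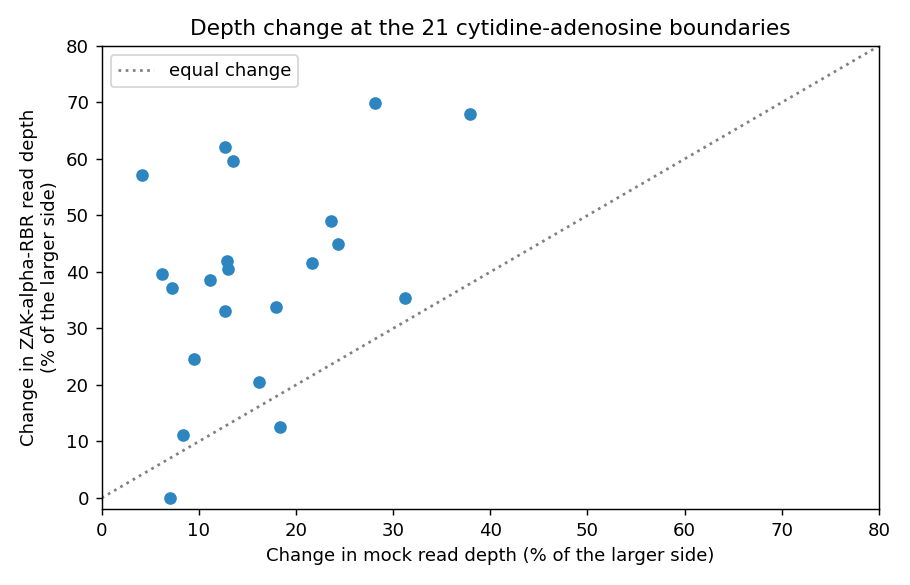
Change in read depth across each of the 21 boundaries between a C and a following A in domain VI, as a percentage of the larger side, with the mock on the horizontal and ZAK-alpha-RBR on the vertical axis. Of the 21 points 19 lie above the dotted line of equal change, with medians of 39.7% for ZAK-alpha-RBR and 13.0% for the mock.

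Most of the runs of positions that were 2-fold lower began or ended at such a boundary. The 123 lower positions formed 7 runs, and 6 of the 7 had an edge there, among them C4560 to C4583 and A4616 to U4632. The 53 higher positions formed 9 runs, of which 2 had such an edge. Since the ratio jumps wherever 1 library steps, these counts describe the same steps again and are no separate observation. The 6 largest ZAK-alpha-RBR falls included 4 at C-A, and the 6 largest rises 3 at C-A and 2 at U-A. In the mock, 2 of the 6 largest falls and 2 of the 6 largest rises were at C-A. With dips in runs of equal bases filled from their flanks, these mock counts were 3 and 4, while those of ZAK-alpha-RBR stayed at 4 and 3, so the counts of largest steps at C-A then no longer separated the libraries. The part of these steps in the ratios of the domain was not tested.

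The ratio also moved with base composition. In the 4 of 18 tiles of 30 positions with at least 80% G and C, the log2 ratio had a median of 0.76 and was above 0 in each. The tiles of the GC-rich arm, picked for their ratio, are among these 4. In the 6 tiles with 60% to under 80% the median was -0.40, with 1 tile above 0. In the 8 tiles with under 60% the median was -0.51, with 1 tile above 0. In the 213 tiles of the rest of the table the medians of the same classes were 0.48 (60 tiles), 0.09 (75 tiles) and -0.25 (78 tiles). Across tiles the ratio and the G and C content correlated with r = 0.54 in the domain and r = 0.47 elsewhere, as a description of tiles that share libraries and neighbouring reads. The part of base composition in the result was not tested.

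**Figure D5:**
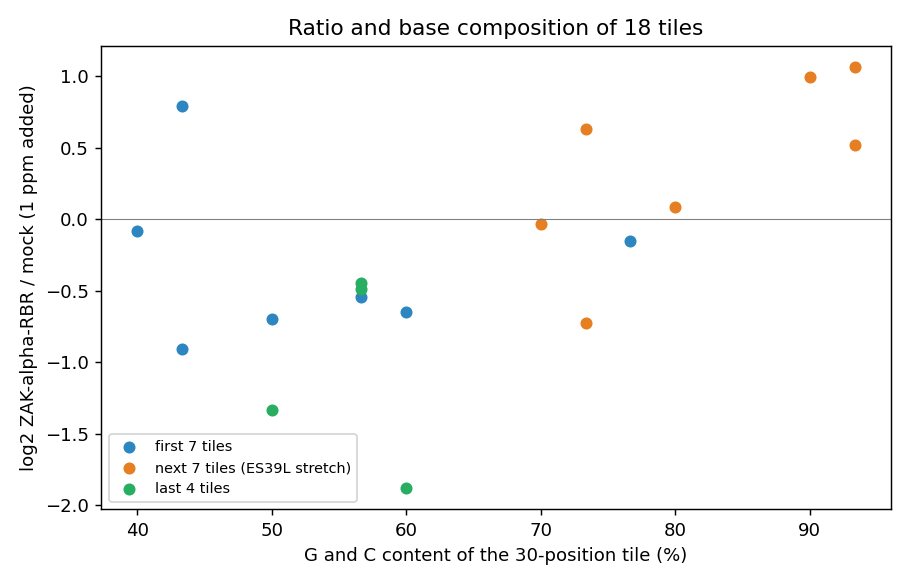
Log2 ratio of ZAK-alpha-RBR over mock mean coverage, with 1 ppm added, against the G and C content of the 18 tiles of 30 positions that make up domain VI, coloured by their place in it. The 4 tiles with at least 80% G and C lie in the ES39L stretch with ratios from 0.08 to 1.07, and the lowest ratio, -1.88, belongs to a tile near the 3′ end.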

How the data were processed

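CLIP-seq coverage of rRNA was deposited for 1 ZAK-alpha-RBR library and 1 mock library. RNA from the pull-downs was extracted, adaptors were joined with a modified Arabidopsis tRNA ligase, and an Ion Proton instrument was used, as the labels' protocols state. Tools were cutadapt 2.0 and Bowtie2 2.3.4.1, per the submitters' processing notes. The reference, strand handling and how multiply mapping reads were placed were not given in the sources used here. Both columns are normalized reads, per the file headers, and hold a coverage signal: a read counts at each position it spans. The deposited signal has equal sums in both columns. The mock column is whole. In the ZAK-alpha-RBR column 100% of entries were multiples of 11.5 within 0.001 of a read, so unscaled depth was recovered by dividing by this step. A blank row was left out.

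Coverage was divided by the library total (ppm), with a pseudocount of 1 ppm in log2 ratios; folds carry no pseudocount. Depths have exact Poisson and folds exact binomial (Clopper-Pearson) intervals at 95%, which cover counting error only; reads without molecular identifiers may be copies. Blocks, tiles of 30 positions, called regions and the highest, lowest and steepest positions were named by rules. The range is defined by position alone, but it, the segments and the rules were chosen with earlier results of these data known. The peak at the start, the GC-rich arm and the second ES39L peak were picked for their high ratios, and the run from A4616 to C4625 for its low ratios. These and the segments between C-A boundaries were chosen after their values were seen. Region calling was tested on simulated reads drawn from the mock profile. These carry counting noise alone, so the test cannot show how often other differences between libraries give calls. Python 3.11.15, numpy 2.4.6, scipy 1.17.1, pandas 2.3.3 and matplotlib 3.10.9 were used. Alternatives were other scalings, pseudocounts, depth minimums, windows, folds, baselines, a shifted range, and dips in runs of equal bases filled from their flanks.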

Additional observations from a re-analysis of the deposited data

How the results depend on the processing

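Neither library has a replicate to leave out, and with 1 library in each group no paired analysis was possible. The log2 ratio of the domain, -0.35, was -0.28 with scaling within 28S, -0.45 with the median of ratios, -0.30 without the highest 18S region in the totals, and -0.44 with the range moved 20 positions downstream and ended at the last position. The count of 53 positions at least 2-fold higher was 22 with a pseudocount of 10 ppm, and the 123 lower positions were 65 without the called region at the 3′ end, an alternative chosen after seeing the data. Higher regions numbered 1 with a window of 5 positions, 4 at 1.5-fold and 3 with library totals as the baseline, and lower regions 7 at 1.5-fold and 2 at 3-fold, by construction of the rule. The 2 at 3-fold lay inside the called regions that start at G4609 and A5006. The dip from A4655 was called lower in full at 1.5-fold, and in part with a window of 5 and with filled dips. The region from C4928 lost its call with a window of 31, library totals as the baseline, at least 20 positions or a pseudocount of 10 ppm, each with 3 lower regions, and at 3-fold. Under other scalings, pseudocounts and filled dips, 25 of 27 blocks, tiles and called regions kept their sign. A pseudocount added to both libraries cannot change a sign, and each scaling moves all segments by nearly the same amount. Under these settings only segments with nearly equal libraries could change, so the count is no check of the others. The tile that starts at C4741 (-0.03) reached 0.03, and the one from A4891 (0.08) reached -0.02. By tile, the lowest median ZAK-alpha-RBR depths were 198.5 reads from C4921, 241.5 from G4831 and 266 from A5041, which limits the precision there.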

Other observations

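Rises at U-A pairs also differed in share between the libraries. The 17 U-A pairs of the domain, 3.15% of its neighbours, held 13.0% of the rises in ZAK-alpha-RBR depth and 6.71% in the mock, while in the rest of the table they held 4.66% and 2.60%. The single rise into A4533 was 7.93% of all ZAK-alpha-RBR rises in the domain. With dips in runs of equal bases filled, the C-A pairs of the domain held 22.1% of falls and 30.4% of rises with ZAK-alpha-RBR, and 12.1% and 22.1% in the mock.

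Coverage itself fell with G and C content in each library. The median tile level with at least 80% G and C was 56.5 ppm for ZAK-alpha-RBR and 27.6 ppm for the mock, against 210 and 256 ppm in tiles with under 60%.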
